A study of Drosophila melanogaster with 2 samples.

Results

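The 31 genes described here encode the core regulators of the fly cell cycle: cyclins, cyclin-dependent kinases (CDKs), their phosphatases, inhibitors and transcription factors, and mitotic and checkpoint proteins. They were taken by name from a list drawn up with earlier results of these data known, and all 31 were found among the 17683 FlyBase genes on the chromosome arms, 30 by symbol and 1, Mad2, through a synonym of the annotated symbol mad2. Where CTCF sits on the genome was measured by ChIP-seq, the sequencing of DNA fragments pulled down with a protein, in Drosophila melanogaster embryos aged 0 to 16 h, with males and females pooled. The embryos were of a transgenic line that makes CTCF with GFP joined to its C terminus. The description names an antibody against GFP, while the antibody field of the labels reads CTCF, and the labels do not say whether untagged CTCF was made too. There was 1 group with 2 biological replicates, numbered 2 and 3, and an untagged line was not analysed here, so no contrast between conditions could be made and no p-value is given. Whole embryos mix many cell types and stages, and a weak peak in all cells cannot be told apart from a strong one in few.

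Progress through the cell cycle is driven by CDKs, which act only when bound to a cyclin. The G1 cyclins and E2F transcription factors start DNA replication, the mitotic cyclins with Cdk1 start division, and the anaphase-promoting complex ends it by destroying cyclins. In the fly embryo the first divisions run on maternal products, and later ones depend on transcription in the embryo, with string (stg) as the best known control point. CTCF is a zinc finger protein known from insulators and domain boundaries.

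Of the 31 genes, 18 (58.1%) had a reproducible CTCF peak whose summit was no more than 1 kb from one of their transcript starts, and over all genes the share was 24.4%. Since the genes were chosen with results known, this contrast is a description and not a test. A reproducible peak is one of the 5443 in the list that the authors thresholded by the irreproducible discovery rate (IDR), a measure of how well replicates agree on a peak. All 31 genes are protein-coding, and over the protein-coding genes alone the share was 27.3%. The 18 genes were CycE, Cdk2 and Cdk4 of G1 and S phase, CycA, CycB, CycB3 and CycG, the phosphatases stg and twe, fzy, E2f1, Dp, polo, tws, and the checkpoint genes BubR1, Mad2, grp and mei-41. The 13 without one were CycD, Cdk1, Cdk7, Wee1, Myt1, fzr, Rbf, Rbf2, E2f2, dap, aurA, aurB and lok. Most of the peaks were weak: with only the 2721 strongest peaks, the count was 6 of 31, and 11.7% of all genes. Each replicate's own 5443 strongest peaks gave 18 genes in replicate 2 and 17 in replicate 3.

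**Figure D1:**
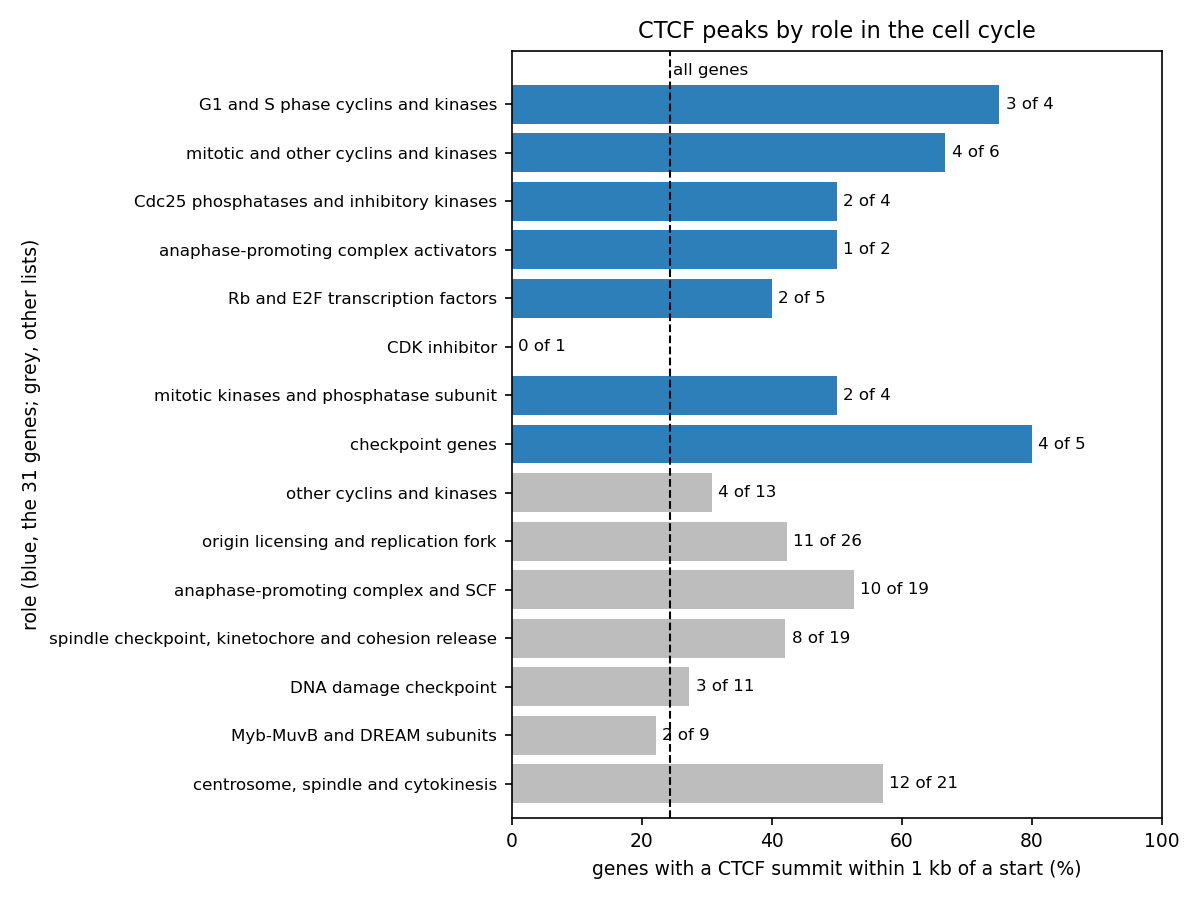
Share of genes, in percent, with a reproducible summit at most 1 kb from a start, for the 31 genes by role (blue bars) and for other cell cycle lists (grey bars), with the count beside each bar; the dashed line is the share over all genes. Checkpoint genes (4 of 5) and G1 and S phase cyclins and kinases (3 of 4) had the highest shares among the 31 genes, and dap, the only CDK inhibitor, had no peak. These roles hold few genes and their order was not tested. The related grey lists had lower shares: 3 of 11 for the DNA damage checkpoint, 8 of 19 for the spindle checkpoint list and 4 of 13 for other cyclins and kinases.

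The number of annotated starts moved with these counts. Among genes with 2 or more starts 11 of 14 had a peak, where all such genes had one in 42.2%, and among genes with 1 start 7 of 17 did, where the share of all such genes was 19.5%. The 18 genes with a peak had a median length of 5528 bp and the 13 without had 2693 bp. By arm, 1 of 5 genes on X had a peak, mei-41, where 24.9% of all genes on X did. On 2L it was 4 of 9 against 22.5%, on 2R 4 of 5 against 24.9%, on 3L 3 of 4 against 24.8% and on 3R 6 of 8 against 25.3%. The share over all genes was thus nearly level across these arms, and the counts per arm for the 31 genes are small. What gene length, start number and arm contribute to these counts was not tested. More than 1 summit lay near the starts of 6 genes, Cdk4, CycE, CycG, Dp, E2f1 and fzy, while 3.73% of all genes had 2 or more. At Cdk4 and at fzy the 2 peaks near the starts overlap each other.

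Signals below are the peak caller's own score, with no stated scale, given for the reproducible list and then for each replicate's list. The reproducible list runs from 195 to 89235 with a median of 345, and a replicate's signal is on its own scale. The 24 distinct peaks near starts of the 31 genes (22 once overlapping peaks are merged) had a median of 267 (median rank 3681). Over the 3415 peaks near any start it was 323. Of the 24, 6 were in the stronger 5 of 10 equal parts of the list (25.0%), where 46.1% of all peaks near a start lay. CycB alone had a peak among the strongest 544 (3.23% of the 31 genes), and 2.38% of all genes had one.

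**Figure D2:**
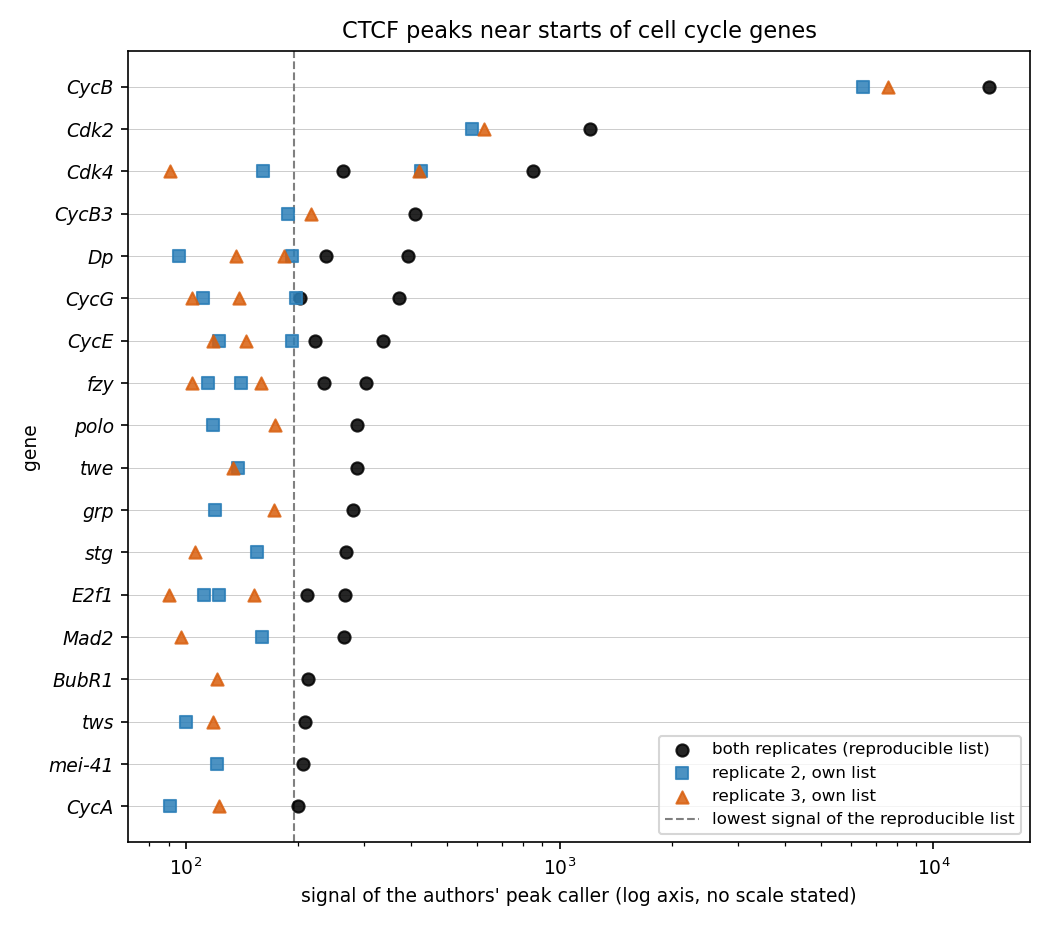
Signal of each reproducible CTCF peak within 1 kb of a start of the 18 genes (log axis; the peak caller's score), from both replicates (black circles) and from the lists of replicate 2 (blue squares) and replicate 3 (orange triangles); the dashed line is the lowest signal of the reproducible list, 195. CycB at 14059 stands apart from Cdk2 at 1206 and Cdk4 at 848, and the other 15 genes lie between 200 and 411.

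Among the mitotic cyclins, CycB (FBgn0000405, dm6 chromosome arm 2R from 22803521 to 22806948, minus strand) carried the highest value at any start of the 31 genes. Its peak spanned 22806517 to 22807399 with the summit at 22807017, 69 bp upstream of the gene, and its signal was 14059 (rank 226), with 6497 in replicate 2 and 7563 in replicate 3. The replicates ranked it 243 and 218. The gene stl starts 843 bp from the summit, and no other gene start lay within 1 kb. Within 50 bp of the summit the CTCF core motif was found neither exactly nor with 1 mismatch.

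CycB3, a further cyclin of mitosis, had a signal of 411 with its summit 82 bp upstream of its only start. Replicate 2 gave 188 and replicate 3 gave 217, so the replicates lay close together. CycA, the cyclin of S phase and mitosis, had the weakest leading peak of the 18 genes, 200, with 90.8 in replicate 2 and 123 in replicate 3. Its summit lay in the 5' UTR, 57 bp inside the start, and ranked 5284 of 5443, so that it passed the threshold by little. CycG, a cyclin with roles in growth control, had 2 peaks at its inner starts. The stronger had 371 (197 and 139 in replicates 2 and 3) and lay 49 bp upstream of the start nearest to it, in an intron of the longer transcripts. The weaker had 202 (111 and 104) and lay 63 bp from a CycG start. It was only 5 bp from the start of Med, a SMAD of the BMP pathway, on the other strand.

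CycE, the partner of Cdk2 at entry into S phase, had 2 weak peaks, one 661 bp upstream of an inner start with 338 (193 in replicate 2 and 145 in replicate 3) and one 156 bp upstream of the gene with 222 (123 and 118). An antisense RNA gene, asRNA:CR44866, starts 305 bp from the second summit. The other G1 cyclin, CycD, the partner of Cdk4, had its nearest reproducible summit 22897 bp away (387).

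Cdk2, the S phase kinase, had the second highest value among the 31 genes at a start. The signal was 1206 (rank 958), with 584 in replicate 2 and 629 in replicate 3, and the summit lay 57 bp upstream of the only annotated start (3R from 20735623 to 20738414, plus strand). The microRNA gene mir-995 and CR42786 start within 1 kb of the same summit, at 357 bp for the nearer, mir-995. Around this summit the sequence held the DNA replication-related element (DRE), the letters TATCGATA, a motif bound by Dref and BEAF-32.

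Windows of up to 50 bp on either side of the summit, in RefSeq's dm6 sequence, are shown for the peaks of Cdk2, CycB3, CycG and fzy because these held a promoter motif in sequence free of annotated UTRs; UTR bases were left out. Each is written 5' to 3' on the gene's strand, at chr3R:20735516-20735616 (plus), chr3R:24870848-24870948 (minus), chr3R:31610991-31611045 (minus) and chr2L:16310879-16310955 (plus). Capitals mark the DRE in Cdk2, Motif 1 (GGTCACAC, bound by M1BP) in CycB3 and fzy, and an E2F site in CycG, where TTTCGCGC is read on the opposite strand.
Cdk2 summit: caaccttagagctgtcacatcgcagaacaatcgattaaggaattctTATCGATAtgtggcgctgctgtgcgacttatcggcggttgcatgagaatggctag
CycB3 summit: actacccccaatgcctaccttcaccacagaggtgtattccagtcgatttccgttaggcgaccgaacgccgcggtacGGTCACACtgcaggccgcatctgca
CycG weaker summit: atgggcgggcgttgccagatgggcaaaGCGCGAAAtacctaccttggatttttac
fzy summit nearest its start: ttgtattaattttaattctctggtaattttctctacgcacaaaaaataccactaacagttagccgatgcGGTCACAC

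Cdk4 (2R from 16579470 to 16585448, plus strand) is the partner of CycD. Of the peaks with summits inside the 31 genes or within 1 kb of their starts, the strongest was in Cdk4, not at a start. Stronger peaks with summits just past the ends of stg and E2f1 are given further on. The Cdk4 peak had a signal of 15144 (rank 207), with 7014 in replicate 2 and 8172 in replicate 3. Its summit at 16584009 lay in an intron, 3176 bp downstream of the nearest Cdk4 start and 640 bp from the start of asRNA:CR44375. The CTCF core was found there neither exactly nor with 1 mismatch. Near the Cdk4 starts themselves were 2 much weaker, overlapping peaks in the 5' UTR. The first had 848 (427 in replicate 2 and 420 in replicate 3), 66 bp inside a start. The second had 263 (161 and 90.6), the largest gap between the replicates among the matched peaks of these genes, with a log2 ratio of replicate 3 to replicate 2 of -0.83.

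Cdk1, the mitotic kinase, and Cdk7, the kinase that activates other CDKs, had no reproducible peak within 1 kb. The nearest summits were 4132 bp (207) and 12233 bp (250) away. Sub-threshold peaks at these genes differed between the replicates and are given further on.

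The Cdc25 phosphatases, which switch Cdk1 on, both had a peak, and the kinases that hold Cdk1 off, Wee1 and Myt1, had none. At stg, which times the divisions of the embryo after the maternal phase, the signal was 268, with 155 in replicate 2 and 106 in replicate 3. Its summit lay 47 bp upstream of the inner start and inside the 5' UTR of the longer transcript. At twe, which acts in meiosis and the early divisions, the signal was 287 (138 and 134), with the summit 1 bp from the inner start and 376 bp from that of CG4935. The nearest reproducible summits were 36181 bp from Wee1 (254) and 8384 bp from Myt1 (250).

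The peak of stg was the only one near a start of the 31 genes that held the exact CTCF core, and 1.79% of all genes had such a peak. The core was taken as AGAGGGCGC, AGATGGCGC, AGGGGGCGC or AGGTGGCGC, read on either strand no more than 50 bp from the summit. This copy sat at a weak peak. A second copy lay under a strong peak just past the other end of stg: signal 24495 (11269 in replicate 2 and 13281 in replicate 3, rank 87), 131 bp beyond the 3' end of the gene, 3630 bp downstream of its nearest start and 1244 bp from the start of SP1029.

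Peaks among the strongest 544 lay within 15 kb of a start of 6 genes, Cdk4, CycB, stg, twe, E2f1 and polo (19.4%), a distance chosen after the values were seen, and 14.8% of all genes had one. For E2f1 it was 825 bp beyond the 3' end of the gene (29400, with 14199 in replicate 2 and 15337 in replicate 3) and 158 bp from the start of InR, the insulin receptor gene. For polo it was 6747 bp beyond the gene (4784, with 2299 and 2515), and for twe 14211 bp upstream, in an intron of crp (4189, with 1880 and 2311). The 4 peaks near stg, E2f1, polo and twe all carried the exact core once, and the intronic Cdk4 peak and the CycB peak did not. Over all reproducible peaks, strong and weak, 12.7% held the exact core. The share among the strongest 544 alone was not counted. Whether the core is more frequent near these genes than at other strong peaks is thus not known. A further strong peak, 9411 bp beyond the end of Cdk4 (40976, with 19746 in replicate 2 and 21298 in replicate 3), held the core with 1 mismatch and lay 213 bp from the start of CG8306.

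**Figure D3:**
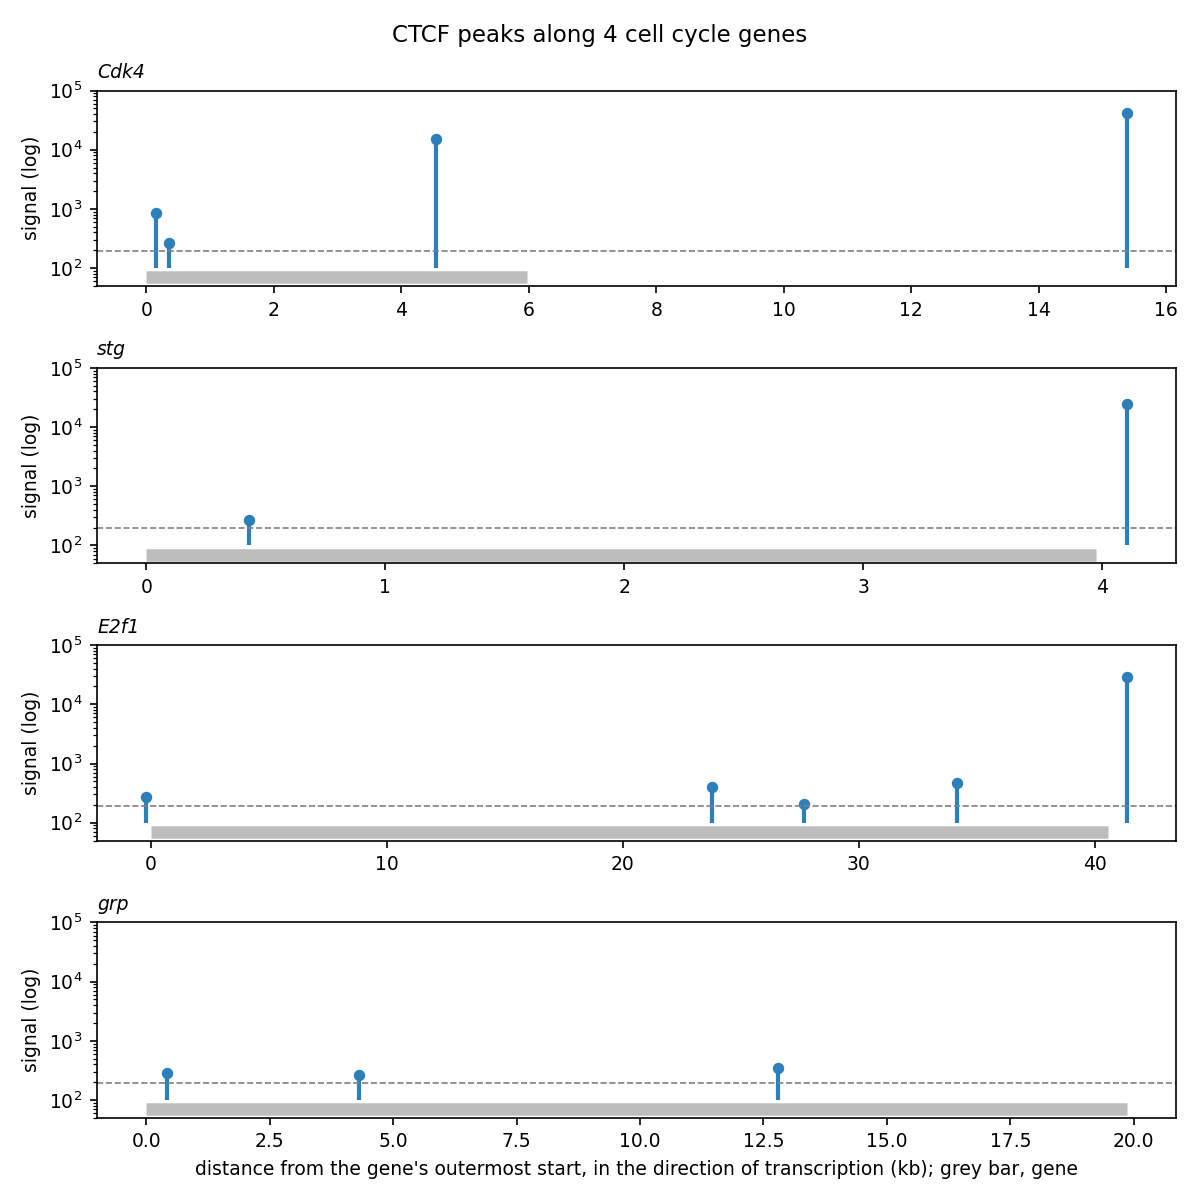
Reproducible CTCF peaks along Cdk4, stg, E2f1 and grp by distance from the outermost start in the direction of transcription (kb, x axis), with stems to the signal of each summit (log axis); grey bars are the genes and the dashed line the lowest signal of the list, 195. In Cdk4 the intronic peak (15144) and in stg and E2f1 the peak past the gene's end (24495 and 29400) exceed all peaks at the genes' starts, and grp has only weak peaks.

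The copies of the core at the weak stg peak and at the strong peaks near stg, E2f1, polo and twe are printed below. The stg start held the form AGATGGCGC, and the strong peaks held AGAGGGCGC (stg and polo) or AGGTGGCGC (E2f1 and twe). These copies were found by a search for the core, so their likeness is no result. All are RefSeq dm6 sequence, 5' to 3' on the strand of the named gene, with the core in capitals: chr3R:29255394-29255422 (minus; 29 bases, since it lies in a 5' UTR), chr3R:29251645-29251745 (minus), chr3R:21619429-21619529 (minus), chr3L:20320163-20320263 (plus) and chr2L:16276038-16276138 (minus). On these strands the copies at the stg start and near polo read in reverse, as the complement of AGATGGCGC and of AGAGGGCGC.
stg start, signal 268: caaaaaacgcGCGCCATCTcgctcgcgcc
stg past the gene end, signal 24495: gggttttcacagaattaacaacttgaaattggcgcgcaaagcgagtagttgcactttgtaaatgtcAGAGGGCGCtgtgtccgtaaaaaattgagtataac
E2f1 past the gene end, signal 29400: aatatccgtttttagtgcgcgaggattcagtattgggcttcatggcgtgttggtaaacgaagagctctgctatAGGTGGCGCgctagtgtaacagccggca
polo downstream, signal 4784: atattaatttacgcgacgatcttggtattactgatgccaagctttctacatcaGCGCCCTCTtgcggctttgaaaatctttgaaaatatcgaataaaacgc
twe upstream, signal 4189: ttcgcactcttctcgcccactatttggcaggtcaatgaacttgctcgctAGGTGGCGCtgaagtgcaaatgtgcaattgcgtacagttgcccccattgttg

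Of the activators of the anaphase-promoting complex, fzy, which acts at the exit from metaphase, had a pair of overlapping peaks. The other, fzr, which keeps the complex active in G1, had none. The stronger fzy summit, 304 (141 in replicate 2 and 159 in replicate 3), lay 227 bp upstream of fzy and 3 bp from the start of the divergent gene cni. The weaker, 234 (115 and 104), lay 27 bp from the start of fzy, beside the Motif 1 copy shown above. The nearest reproducible summit to a fzr start was 5011 bp away (212).

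In the Rb and E2F group the activator E2f1 and the shared partner Dp had peaks, while the repressor E2f2 and the pocket proteins Rbf and Rbf2 did not. E2f1 had 4 summits at or in the gene, 2 near starts and 2 deeper in it. Those near starts had 267 (112 in replicate 2 and 152 in replicate 3), 207 bp upstream of the gene, and 211 (123 and 90.5), 114 bp upstream of an inner start. The deeper ones were stronger, 463 (198 and 255) and 397 (217 and 204), at 5999 bp and 1404 bp downstream of the nearest E2f1 start, in an annotated 5' UTR and in an intron. Dp had 393 (192 and 183), 254 bp upstream of an inner start, and 238 (95.7 and 136), 15 bp from its outer start and 41 bp from that of the divergent gene Fsn.

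For E2f2 the nearest reproducible summit was 1926 bp from a start, just outside the distance used (237). For Rbf it was 16881 bp away and strong (5821, rank 445, no exact core), and for Rbf2 7188 bp (290). The CDK inhibitor gene dap, whose product stops cells in G1 in the embryo, had its nearest summit 18667 bp away (820).

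Of the mitotic kinases polo had a peak and the Aurora kinases aurA and aurB had none. At polo the signal was 288, with 118 in replicate 2 and 173 in replicate 3, and the summit lay 108 bp upstream of the inner start, in the 5' UTR of the longer transcript. The gene tws, for a regulatory subunit of phosphatase 2A that opposes mitotic CDK activity, had 209 (100 and 118), 663 bp upstream. The nearest summits were 28788 bp from aurA (254) and 7216 bp from aurB (211).

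Checkpoint genes had peaks in 4 of 5 cases, all weak. BubR1, of the spindle checkpoint, had 213 with its summit 33 bp upstream; replicate 3 gave 121, and replicate 2 had no summit within 100 bp. Mad2, of the same checkpoint, had 265, with 160 in replicate 2 and 97.0 in replicate 3, at 176 bp upstream. The ATR kinase gene mei-41 had 206 with its summit 75 bp upstream and 185 bp from the start of TH1; replicate 2 gave 121, and replicate 3 had no summit within 100 bp. At BubR1 replicate 2 did hold a summit farther off, 90.2 at 143 bp from the start, and at mei-41 replicate 3 held one of 98.0 at 202 bp from the start, so the missing matches rest on the distance of 100 bp.

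The Chk1 gene grp had 3 weak summits along its body. The one near its outer start, 281 (120 in replicate 2 and 172 in replicate 3), was 411 bp from the outer start of grp, which squ shares on the same strand, and 105 bp from another start of squ. The others, 260 (134 and 131) and 354 (162 and 202), were 1034 bp and 2683 bp upstream of inner starts, and the first of them was 348 bp from a start of CG31807. For lok, the Chk2 gene, the nearest reproducible summit was 4803 bp away (729).

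No gene of the 31 had a summit in its body alone; 2.99% of all genes did. Cdk4, E2f1 and grp, which had 5 summits in their bodies beyond 1 kb in all, had peaks near their starts too.

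**Figure D4:**
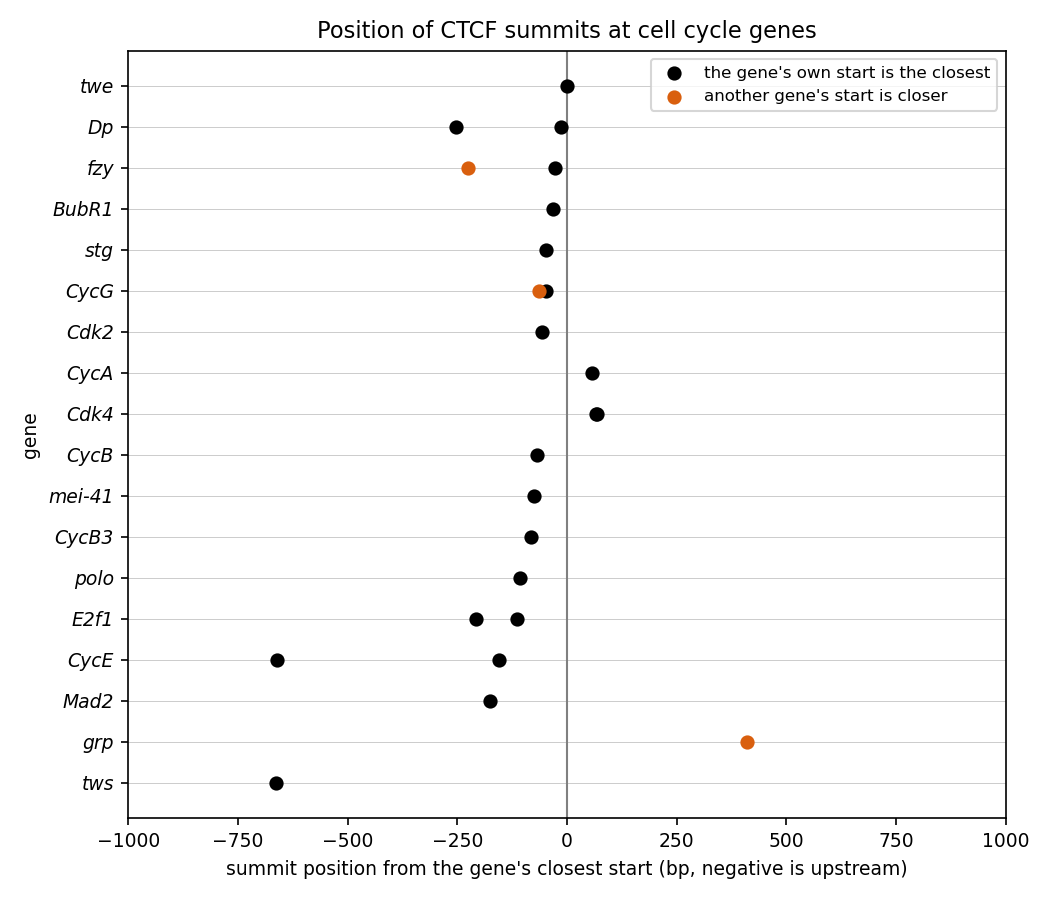
Position of each of the 24 summits near starts of the 18 genes from the closest start of the gene (x axis, bp; negative is upstream), black where that start is the closest of any gene and orange where another gene's start is closer. Of the summits 20 lie upstream and 14 within 100 bp of a start, and for 1 peak each of fzy, CycG and grp another start is closer.

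The summits lay close to the starts. The median distance was 72 bp for the 24 peaks, measured to the closest start of the cell cycle gene itself. For all peaks near a start it was 122 bp, measured to the closest start of any gene, so the measures are not alike. By these measures 14 of 24 (58.3%) lay within 100 bp, where 44.3% of all did. Of the 24 summits 20 were upstream of the cell cycle gene's closest start and 4 at or inside it. Over all peaks near a start, taken from the closest start of any gene, these were 2605 and 810. By the genes' own transcripts 12 were upstream of the gene, 6 in a 5' UTR and 6 in an intron. Another gene started within 1 kb of 13 of the 24 summits, and for 3 of them, at cni, Med and squ, that start was closer than the cell cycle gene's own. Which of the genes such a peak belongs to cannot be told apart. Neighbouring starts, closer starts and positions in transcripts were not counted over all peaks near a start. Whether these counts are high or low is thus not known. Apart from CycB, Cdk2 and the stronger near-start and intronic peaks of Cdk4, every peak was listed with the same width of 436 bp.

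Each motif searched for, apart from the short Myb site, was in few of the peaks. The exact CTCF core was in 1 of 24 (4.17%) and in 7.0% of all peaks near a start, and with 1 mismatch it was in 2 (8.33%), stg and Cdk2, against 16.8%. DRE was in 2, Cdk2 and BubR1 (8.33% against 4.25%), Motif 1 in 2, CycB3 and fzy (8.33% against 3.78%), and an E2F site (TTTCCCGC, TTTCGCGC, TTTGCCGC or TTTGGCGC) in 1, CycG (4.17% against 3.40%). The su(Hw) core (TGCATACTT or TGCATATTT) was in 1, CycE (4.17% against 1.55%), and GAGAGAG, bound by Trl, in 1, E2f1 (4.17% against 1.93%). The short Myb site (CAACNG or TAACNG) was in 8, or 33.3%, near the 31.3% of all peaks near a start. The form TTTGGCGC of the E2F site shares GGCGC with the CTCF core.

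In the promoters themselves, from 250 bp before to 50 bp after any start of a gene, DRE was found in 7 of 31 genes (22.6%) and in 8.37% of all genes. They were BubR1, Cdk2, Cdk4, CycA, Mad2, Rbf2 and mei-41, and 6 of them had a CTCF peak. The E2F site was in 6 (19.4% against 7.86%), CycB, CycE, CycG, grp, stg and tws, all with a peak. Motif 1 was in 6 (19.4% against 7.09%), CycB, CycB3, Myt1, Rbf, aurB and fzy, of which 3 had a peak. Over protein-coding genes alone the shares were 10.2% for DRE, 8.72% for the E2F site and 8.71% for Motif 1. Set beside protein-coding genes, the su(Hw) core was in 3 (9.68% against 2.01%) and GAGAGAG in 5 (16.1% against 9.09%). The Myb site was in 25 (80.6% against 71.4%) and the CTCF core in 1, stg (3.23% against 1.35%). A gene with several starts was searched several times, and genes with a peak had more starts. These counts are thus descriptions of the sequence and not of binding by the factors. All 6 genes with the E2F site had 2 or more starts, and 11 of the 14 such genes among the 31 had a peak. How many of all genes with each motif had a peak was not counted. Whether the motifs and the peaks go together is thus not known.

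At most of these peaks both replicates held a summit. Of the 24 summits 22 were found again in each replicate within 100 bp (91.7%), and 95.3% of all peaks near a start were. The count follows the distance allowed, with 18 matched within 50 bp and all 24 within 200 bp. Across the 22 the log2 ratio of replicate 3 over replicate 2 had a median of -0.03 and an SD of 0.41, and across 3253 peaks near any start a median of 0.08 and an SD of 0.45. Among the 5443 strongest of both replicates were 17 of the 24 (70.8%), and 75.8% of all peaks near a start. The reproducible list was chosen on agreement between these replicates, so these figures do not measure it independently.

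The 13 genes without a reproducible peak still had weak summits in the relaxed lists, which hold 30000 peaks each and include background. The pooled list had a summit within 1 kb of a start for 11 of the 13, and for 44.8% of all genes without a reproducible peak. The lists of both replicates did so for 8, Cdk7, E2f2, Myt1, Rbf, aurA, aurB, fzr and lok, and for 36.2% of all such genes. E2f2 came nearest to the threshold of 195 with 182 in the pooled list, 82.1 in replicate 2 and 95.7 in replicate 3, and Cdk7 followed with 170, 59.3 and 106. Cdk1 (128 pooled) had 116 in replicate 2, where it ranked 4458, and no summit in replicate 3. The replicates also differed at aurB (138 pooled), with 101 in replicate 2 and 41.6 in replicate 3.

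The remaining pooled values were lower still: 119 at Myt1, 110 at lok, 108 at fzr, 96.7 at Wee1, 80.9 at Rbf, 78.4 at aurA and 67.1 at CycD. Of these Wee1 and CycD had a summit in replicate 2 alone, with 44.9 and 33.1. Rbf2 and dap had no pooled summit within 1 kb. Rbf2 had 54.4 in replicate 2 alone and dap 45.8 in replicate 3 alone, where the weakest listed peaks have 29.2 and 31.4. Read depth is unknown, so a missing peak says only that none was listed.

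**Figure D5:**
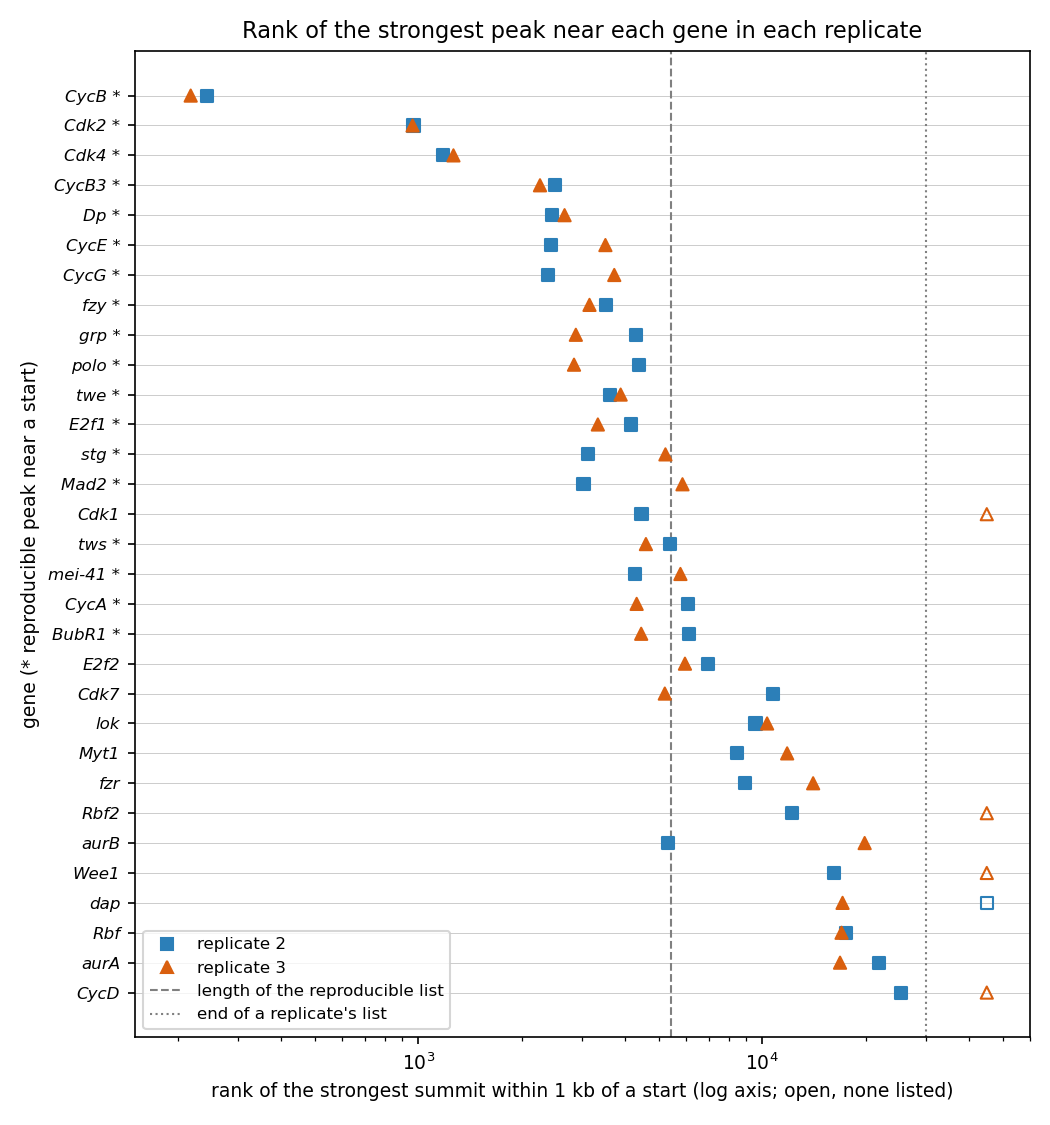
Rank, in each replicate's own list, of the strongest summit within 1 kb of a start for all 31 genes (log axis; 1 is the strongest; open symbols, none listed), with an asterisk at the 18 genes with a reproducible peak. The replicates lie close together for CycB, Cdk2 and Cdk4 and far apart for aurB and, less so, Cdk7. Cdk1, CycD, Wee1 and Rbf2 have a summit listed in replicate 2 only, and dap in replicate 3 only.

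Other genes of the cell cycle, 118 in 7 lists chosen by function, had a peak near a start in 50 cases (42.4%), between the 24.4% of all genes and the 58.1% of the 31. The share was highest for genes of the centrosome, spindle and cytokinesis, 12 of 21 (57.1%), led by asl (10177), a centriole duplication gene, then sti (705), spd-2 (555) and mts (465). The spd-2 summit was 7 bp from the start of Apl and 160 bp from that of spd-2, and the mts summit 4 bp from Rack1 and 400 bp from mts. Genes of the anaphase-promoting complex and SCF ligases had 10 of 19 (52.6%), led by Cul1 (2165), Rca1 (1597), slmb (670) and SkpA (449), whose summit was nearer to Hmt4-20 (234 bp) than to SkpA (942 bp). Within that list ida, with 406, was the only one of the 118 with the CTCF core at its peak.

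Genes of origin licensing and the replication fork had peaks in 11 of 26 cases (42.3%), led by chif (2969), the Dbf4 gene, then Orc4 (1014), Mcm7 (638) and Orc1 (447). Genes of the spindle checkpoint, kinetochore and cohesion release had 8 of 19 (42.1%), led by Bub1 (7380), Mps1 (391), Spc105R (327) and Det (260). The summit at Bub1 was 309 bp from its start and 8 bp from that of Nin, that at Mps1 344 bp from its own and 32 bp from that of CG7523, and that at Det 159 bp from its own and 96 bp from that of m-cup. Lower shares were found for other cyclins and kinases, 4 of 13 (Cks30A 360, Mat1 321, Cdk12 295 and CycC 233), the DNA damage checkpoint, 3 of 11 (p53 378, Claspin 318 and mus101 253), and Myb-MuvB and DREAM subunits, 2 of 9 (lin-52 568 and mip120 494). Here too the summits at lin-52 (449 bp, with CG15771 at 167 bp) and CycC (57 bp, with UQCR-C1 at 31 bp) were closer to another gene. The order of these shares rests on few genes and was not tested.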

How the data were processed

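The authors deposited peak lists on dm6, per the labels and the notes deposited with the files: a relaxed list for each replicate and for both pooled, made from alignments and a control as input for IDR, and the list thresholded by IDR. The aligner and peak caller are not stated in the labels or notes, control libraries were not used here, and lists on dm3 were left out. The score of a peak is the signal value the authors deposited, which has no stated scale. Read depth is unknown.

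Genes of the chromosome arms came from Ensembl release 115 (BDGP6.54), and coordinates and chromosome names were checked against the RefSeq dm6 sequence. A gene had a peak where a summit lay within 1 kb of any of its transcript starts. Replicate summits were matched within 100 bp, and motifs were read on either strand up to 50 bp from a summit. Of 119 names in the other lists, CENP-meta was not matched, and lmg was matched through a synonym to lmgB, which is uncertain. All 31 genes are named, with neighbours whose start is near a peak and up to 4 leading genes of each other list. Members and lists were chosen with earlier results of these data known, so shares over all genes stand beside the counts and no test was made. Other distances, peak sets, motif rules and single replicates were tried. The counting was tested on simulated data, and 4 of 4 checks passed. Python 3.11.15, numpy 2.4.6, pandas 2.3.3 and matplotlib 3.10.9 were used.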

Additional observations from a re-analysis of the deposited data

How the results depend on the processing

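Of 46 recomputed values 31 stayed within the limit set for them. For counts this was 1.5 times the reported count, and a count of 0 had to stay 0. For the median signal it was the spread between the replicates' medians (1.52), and for the median log2 ratio the SD across peaks (0.41). Medians of 1 replicate alone are on another scale than the reproducible list, so they were bound to fall outside. The count of genes with a summit near a start, 18, was 16 at 200 bp, 17 at 500 bp and 19 at 2 kb, while the share of all genes moved more, to 14.6%, 20.1% and 31% from 24.4%. It was 17 or 18 with merged peaks, with peak overlap, with 1 start per gene and in each replicate alone, where all genes had between 23.1% and 25.9%. It fell to 6 with the 2721 strongest peaks (all genes 11.7%), where BubR1, CycA, CycE, E2f1, Mad2, fzy, grp, mei-41, polo, stg, twe and tws were lost. In replicate 3 alone Mad2 and mei-41 were lost and Cdk7 gained, and in replicate 2 alone BubR1 and CycA were lost and Cdk1 and aurB gained. Genes with a summit in the body only, 0, were 1 at 200 bp, 2 with the 2721 strongest peaks and 1 with 1 start per gene. Genes with a motif peak, 1, were 0 with the 2721 strongest peaks (all genes 1.69%) and 2 with 1 mismatch allowed (all genes 4.50%). The median signal, 267, was 264 at 200 bp, 274 with merged peaks, 629 with the 2721 strongest peaks and, on the replicates' own scales, 131 to 137. Peaks closest to another gene's start, 3, were 1 at 200 bp, 5 at 2 kb, 0 with the 2721 strongest peaks and 4 to 6 in 1 replicate alone. Keeping only the 2721 strongest peaks can only remove genes near a start, and E2f1 and grp, whose stronger peaks lie deeper in the gene, then count as body only. The cause of the other shifts was not tested. Read depth is unknown, so what it limits cannot be stated.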
